A study of Homo sapiens with 3 samples.

Results

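The 37 genes described here encode proteins of homologous recombination, of the Fanconi anaemia pathway and of the kinase signalling that halts the cell cycle when DNA is damaged. They were chosen as the rows of the deposited count table that carry one of 37 listed symbols, and each symbol stood in 1 row of the 57736 gene rows in the table. RNA was sequenced from TOV21G, an established human line of ovarian clear cell carcinoma whose ARID1A gene, a subunit gene of the SWI/SNF chromatin remodelling complex, is mutated in all libraries. The knockdown group (n = 2) held 1 library of cells transduced with lentivirus for hairpin shRNA 1 and 1 library for hairpin shRNA 2, both against HDAC2, a class I histone deacetylase. It was set against 1 library of wild-type cells (WT, n = 1), and the labels do not state whether these cells received a control virus, so depletion of HDAC2 and transduction itself cannot be told apart.

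Homologous recombination repairs a double-strand break by copying an intact sister chromatid. The ends are first resected to single strands, BRCA1 and BRCA2 with their partners prepare these for strand exchange, accessory and motor proteins help the invasion of the sister duplex, and nucleases and helicases take the joined molecules apart. Fanconi proteins recognise a crosslink between the strands, and their core complex attaches ubiquitin to the clamp of FANCD2 and FANCI, which calls in nucleases and recombination. ATM and ATR are the kinases at the top of the checkpoint, and CHEK1 and CHEK2 are the kinases they activate. Many of these genes are known to be transcribed mainly in the S and G2 phases of the cell cycle.

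The libraries held 11398791 counts with shRNA 1, 11225492 counts with shRNA 2 and 10138479 counts in WT. HDAC2 itself (ENSG00000196591) stood at 31.7% of the WT level with shRNA 1 and at 48.9% with shRNA 2, a log2 change of −1.31 ± 0.20 (SE). Markers of the labelled tumour type were mixed, as PAX8, a transcription factor of clear cell carcinoma, had 250.5 and 174 CPM (counts scaled to library size) with shRNA 1 and shRNA 2, against 263 CPM in WT, whereas the aspartic protease gene NAPSA had 4 and 1 counts, against 1 in WT. Of the 7 leukocyte, endothelial and stromal markers in the table, CD3E had 0 counts in every library and PTPRC, VWF and PDGFRB had at most 2. The other 3 were CD14, with at most 9 counts, COL1A1, which did not pass the test, and the collagen gene COL1A2, which rose by 1.48 ± 0.27 (SE) on the log2 scale. The 7 summed to 24.95 and 37.85 CPM with shRNA 1 and shRNA 2, against 16.65 CPM in WT, and their part in the results below was not tested.

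Transcripts of many recombination and Fanconi genes were fewer in the knockdown libraries than in WT, and none of the tested genes rose past the threshold. Of the 36 genes that passed the filter on low counts, 12 fell, 0 rose and 24 did not pass (edgeR's quasi-likelihood test, adjusted p below 0.05 over 14524 genes). The fallen genes are BRCA1, XRCC3, RAD51AP1, RAD54L, EXO1, RMI1, EME1, FANCA, FANCE, FANCG, FANCD2 and FANCI. They make up 33.3% of the 36, where 3.76% of all genes tested fell, 3.96% rose and 7.72% changed in either direction. The median log2 change of the 36 was −0.32, beside 0.01 over all genes tested. Both hairpin libraries lay below WT for 26 of the 36 genes and above it for 4, beside shares of 39.3% and 39.9% of all genes tested. At an unadjusted p below 0.05, 14 genes were lower and 0 were higher, the additional 2 being BARD1 and BRIP1. Of all genes tested, 3420 (23.5%) had such a p, 1619 of them lower and 1801 higher. The p-values rest on the spread between 2 hairpin libraries, whose separate cultures the labels do not describe. The fit gives the lone WT library the same spread. For each gene, the spread came mostly from all genes tested together (18.9 prior degrees of freedom). The gene's own libraries gave 1 residual degree of freedom. With DESeq2's Wald test in place of edgeR's, FANCI alone of the 36 passed (adjusted p = 0.0415), and 11 of the 36 were given no adjusted p. Of all 14524 genes, that test called 155 lower and 151 higher, and it gave 6195 no adjusted p. Without a filter on low counts, 0 of the 37 passed edgeR's test and 10 had an unadjusted p below 0.05. Of all 23698 genes in that fit, 0 passed and 2486 had such a p.

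**Figure D1:**
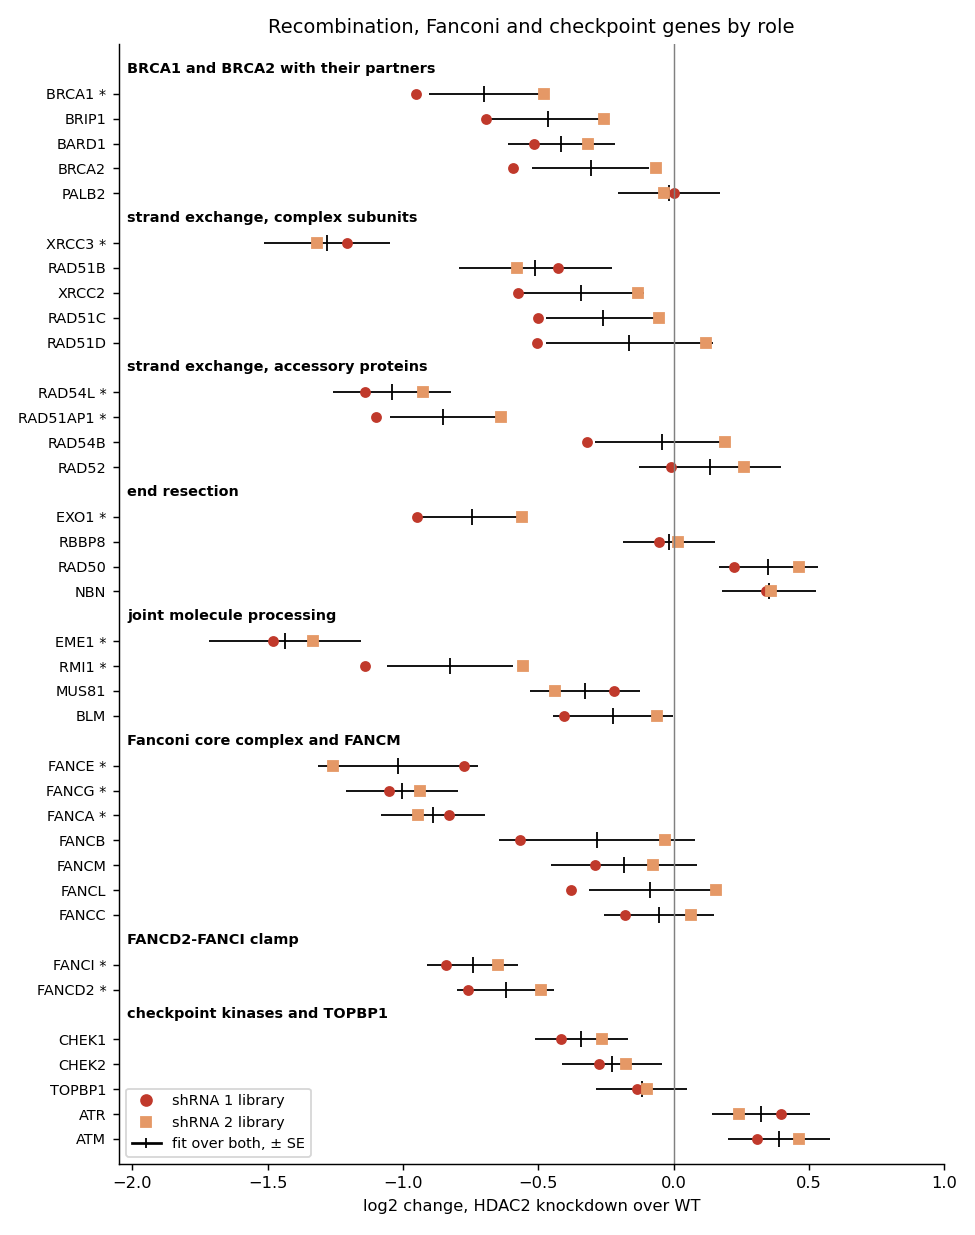
Log2 change of each tested gene against WT, grouped by role. Circles are the shRNA 1 library and squares the shRNA 2 library (log2 CPM with a prior count of 2), bars are the fitted change over both ± SE, and an asterisk marks the 12 genes past the adjusted p threshold. All 12 lie left of 0 with both hairpins, and ATM, ATR, NBN and RAD50 lie right of it with both.

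The letters of the promoters were read from RefSeq windows (GRCh38.p14), which 34 of the 37 genes had. Each window ran from 250 bases before to 50 bases after the gene's start. The E2F family of transcription factors, which drives S phase genes, is known to bind sites such as GGCGGGAA, TTTCCCGC and TTTGGCGC. At least one of these words, on either strand and counted once where they overlap, stood in 10 of the 34 windows (29.4%), in 7.515% of the 9528 tested genes with a window and in 4.59% of all 35116 windows. Among the fallen genes it stood in 4 of 11 windows (36.4%), and among those that did not pass in 6 of 22 (27.3%). The difference between these shares was not tested. The NF-Y word CCAAT stood in 14 of the 34 windows (41.2%) and in 37.1% of the 9528, and the cell cycle element TTTGAA in 3 (8.82%) and in 9.37%. Below are the 120 bases before the start for 4 genes, 5′ to 3′ on the + strand, with these words in capitals. RAD51AP1 (chr12:4538770-4538889) and RAD54L (chr1:46247568-46247687) fell and hold the E2F word, at 22 and 49 bases before the start, and the CCAAT word in its reverse form. BRCA1, EXO1, RMI1, EME1, FANCA, FANCE and FANCG also fell, and their windows, not printed, hold none of the E2F words. BLM (chr15:90717226-90717345) holds the same words as RAD51AP1 and RAD54L and did not pass the test. ATM (chr11:108222947-108223066), whose value was above WT with both hairpins, holds TTTGAA and no E2F word. The full window of ATM also holds CCAAT.
RAD51AP1: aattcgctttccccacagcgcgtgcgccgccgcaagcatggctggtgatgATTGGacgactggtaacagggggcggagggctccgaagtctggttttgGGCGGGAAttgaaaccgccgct
RAD54L: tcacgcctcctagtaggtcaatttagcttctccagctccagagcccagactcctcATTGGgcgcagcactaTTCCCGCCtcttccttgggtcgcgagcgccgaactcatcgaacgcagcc
BLM: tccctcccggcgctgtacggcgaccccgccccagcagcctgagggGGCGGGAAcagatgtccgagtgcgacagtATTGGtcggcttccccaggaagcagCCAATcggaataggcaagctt
ATM: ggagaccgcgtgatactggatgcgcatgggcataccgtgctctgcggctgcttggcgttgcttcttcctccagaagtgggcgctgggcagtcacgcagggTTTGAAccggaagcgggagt
A word in these letters is a description of the sequence and does not show binding.

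Among BRCA1, BRCA2 and their partners, BRCA1 was the gene that fell. BRCA1 (ENSG00000012048), the ubiquitin ligase that promotes resection, had 250 counts with shRNA 1 and 343 with shRNA 2, against 422 in WT. At 21.8 and 30.3 CPM, against 42.3 CPM in WT, both knockdown libraries were lower, and the log2 change was −0.70 ± 0.21 (SE, adjusted p = 0.0413 by edgeR's quasi-likelihood test). This call lay close to the threshold and was lost with DESeq2 size factors (adjusted p = 0.0514), with upper quartile scaling and with a stricter filter of mean count 50 (adjusted p = 0.0530). BRIP1, a helicase that binds BRCA1, had 191 and 256 counts against 270 in WT (log2 −0.46 ± 0.22, SE), and BARD1, the obligate partner of BRCA1 in its ligase, had 266 and 302 counts against 332 in WT (log2 −0.42 ± 0.20, SE). Neither passed over all genes, at adjusted p of 0.205 and 0.207. PALB2, which bridges BRCA1 and BRCA2, was the least different of the 5, with 32.9 and 32.1 CPM in the knockdown libraries against 32.9 CPM in WT. BRCA2, which acts after resection to prepare strand exchange, stood at 66.1% of WT with shRNA 1 and at 95.6% with shRNA 2, so the hairpins differed more from each other than shRNA 2 did from WT.

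RAD51B, RAD51C, RAD51D, XRCC2 and XRCC3 form complexes that assist strand exchange, and of these 5 genes XRCC3 fell and the other 4 did not pass. XRCC3 (ENSG00000126215) had 90 and 82 counts with shRNA 1 and shRNA 2, against 183 in WT, which is 42.8% and 39.5% of the WT level. Its log2 change was −1.28 ± 0.23 (SE, adjusted p = 0.00214 by edgeR's quasi-likelihood test). XRCC3 is the more uncertain of the calls in one respect, because 64.5% of its read-length sequences also belong, on the opposite strand, to KLC1, a kinesin light chain gene, and the sources used here do not state whether reads were counted by strand. KLC1 (ENSG00000126214) itself had 665 and 617 counts against 468 in WT and did not pass (log2 0.26 ± 0.18, SE). RAD51B, RAD51C and XRCC2 had log2 changes of −0.51, −0.26 and −0.34. RAD51D was the least different on average, at −0.16 ± 0.31 (SE), with 65 counts for shRNA 1 and 100 for shRNA 2, against 81 in WT.

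The accessory genes of strand exchange differed, as RAD51AP1 and RAD54L fell while RAD52 and RAD54B did not pass. RAD51AP1 (ENSG00000111247), which stimulates strand invasion, had 309 and 421 counts, against 578 in WT, a log2 change of −0.85 ± 0.20 (SE, adjusted p = 0.0108). RAD54L (ENSG00000085999), the motor protein that remodels the invaded duplex, had 109 and 125 counts, against 211 in WT, a log2 change of −1.04 ± 0.22 (SE, adjusted p = 0.00562). Both hairpins left RAD54L near the same level, 44.9% and 52.2% of WT, whereas RAD51AP1 stood at 46.5% with shRNA 1 and 64.2% with shRNA 2. RAD52, a mediator of strand annealing, had 104 and 124 counts against 91 in WT (log2 0.13 ± 0.26, SE). RAD54B, a paralog of RAD54L that shares 55.0% of its read-length sequences with FSBP and is uncertain, had 124 and 175 counts against 135 in WT (log2 −0.04 ± 0.25, SE). The difference between the falling and the other genes was not itself tested.

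Among the resection genes, EXO1 fell and the others did not pass. EXO1 (ENSG00000174371), the exonuclease of long-range resection, had 240 and 311 counts, against 405 in WT. Its log2 change was −0.75 ± 0.20 (SE, adjusted p = 0.0280). RAD50 and NBN, subunits of the complex with MRE11 that senses and first cuts broken ends, were above WT with both hairpins. NBN had 755 and 754 counts against 518 in WT, a difference of 0.35 ± 0.17 on the log2 scale (SE, adjusted p = 0.229). RAD50 had 608 and 709 counts against 453 in WT (log2 0.35 ± 0.18, SE, adjusted p = 0.260), and 76.7% of its read-length sequences also belong to AC116366.3, a gene annotated over it, so its count is uncertain. RBBP8, the cofactor also called CtIP, had 92.8 and 97.4 CPM, against 96.3 CPM in WT.

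The largest change of any of the 36 genes, by the fitted log2 value, was that of EME1. EME1 (ENSG00000154920), the partner of the structure-specific nuclease MUS81, had 51 and 56 counts, against 127 in WT. At 34.9% and 38.9% of WT the hairpins left nearly the same level, and the log2 change was −1.44 ± 0.28 (SE, adjusted p = 0.00361). MUS81 itself did not pass, with 275 and 233 counts against 279 in WT (log2 −0.33 ± 0.20, SE). RMI1 and BLM belong to one complex, in which the BLM helicase dissolves double Holliday junctions and RMI1 steadies the topoisomerase. RMI1 (ENSG00000178966) had 139 and 207 counts, against 269 in WT, and fell by 0.83 on the log2 scale (SE 0.23, adjusted p = 0.0341). That call was lost under the same stricter filter (adjusted p = 0.0515). BLM had 179 and 225 counts, against 207 in WT, and did not pass (log2 −0.23 ± 0.22, SE).

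**Figure D2:**
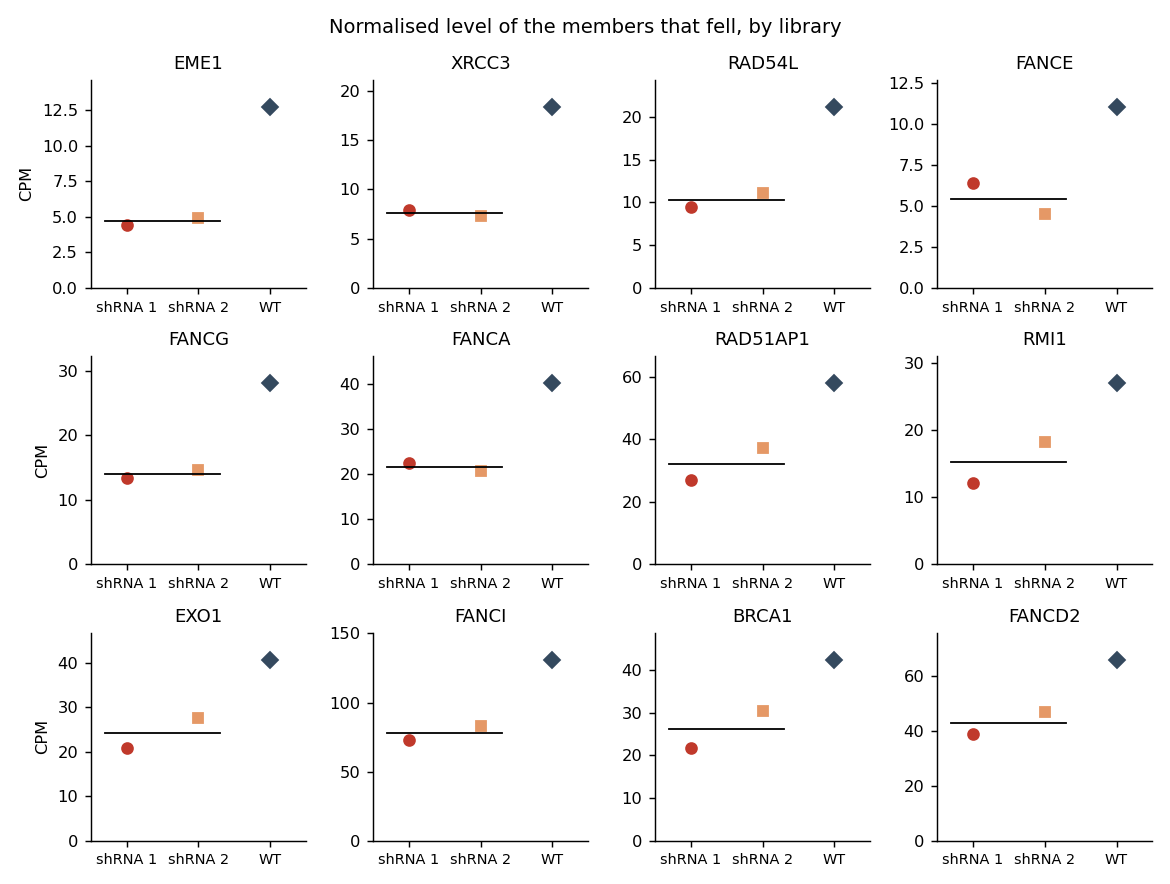
Normalised level (CPM, linear axis from 0) of the 12 genes that fell, in the shRNA 1, shRNA 2 and WT libraries. Each symbol is 1 library and the horizontal line is the knockdown mean. Every knockdown value lies below the WT value of the same gene. Panels run from the largest fitted log2 fall, EME1, to the smallest, FANCD2. EME1 had 4.45 and 4.95 CPM against 12.7 CPM in WT, and FANCD2 had 38.7 and 46.7 CPM against 65.7 CPM in WT.

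In the Fanconi pathway, both subunits of the clamp fell, as did 3 subunits of the core complex. FANCI (ENSG00000140525) had 837 and 943 counts, against 1305 in WT, a log2 change of −0.74 ± 0.17 (SE, adjusted p = 0.0104). FANCD2 (ENSG00000144554) had 444 and 528 counts, against 655 in WT, a log2 change of −0.62 ± 0.18 (SE, adjusted p = 0.0367). Of the 7 tested genes of the core complex and FANCM, FANCA, FANCE and FANCG fell, and FANCB, FANCC, FANCL and FANCM did not pass. FANCG (ENSG00000221829), which binds FANCA, had 154 and 165 counts, against 280 in WT (log2 −1.003 ± 0.21, SE, adjusted p = 0.00505). FANCA (ENSG00000187741) had 258 and 235 counts, against 400 in WT (log2 −0.89 ± 0.19, SE, adjusted p = 0.00686). FANCE (ENSG00000112039), the subunit that binds FANCD2, had 73 and 51 counts, against 110 in WT (log2 −1.02 ± 0.30, SE, adjusted p = 0.0383). All 3 were near 50% of WT, with 47.8% and 51.9% for FANCG, 56.1% and 51.8% for FANCA, and 57.7% and 40.9% for FANCE, which had the fewest counts. FANCA shares 17.2% of its read-length sequences with the opposite strand of ZNF276, which had 218 and 174 counts against 145 in WT and did not pass. A smaller overlap of this kind touches RAD54L (13.6%) and EME1 (8.88%), and one of 15.3% touches ATR.

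The remaining core genes were close to WT or differed between the hairpins. FANCC, with 283 and 331 counts against 279 in WT, had the smallest difference (log2 −0.05 ± 0.20, SE). FANCB, with 42 and 61 counts against 55 in WT, had the lowest value of those that did not pass (log2 −0.28 ± 0.36, SE). FANCL, the ubiquitin ligase subunit, stood at 76.7% of WT with shRNA 1 and at 112% with shRNA 2, and FANCM, the translocase that anchors the complex, at 81.4% and 94.7%.

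FANCF, an adaptor of the core complex encoded by a single exon, was the one gene of the 37 that could not be tested. It had 0 counts with shRNA 1, 1 count with shRNA 2 and 0 counts in WT. A count of 0 allows up to 3 counts, or 0.262 CPM with shRNA 1 and 0.301 CPM in WT, which covers counting error only. Every other gene of the 37 had at least 42 counts in each library. Loss of FANCF by promoter methylation is known from ovarian tumours, and methylation was not measured here.

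The checkpoint kinases were the group without a call. ATM had 466 and 512 counts, against 327 in WT, a log2 change of 0.39 ± 0.19 (SE, adjusted p = 0.217). ATR had 634 and 561 counts, against 418 in WT, a log2 change of 0.32 ± 0.18 (SE, adjusted p = 0.294). For both apical kinases the knockdown libraries lay above WT, and for both effector kinases they lay below it. CHEK1, the effector of ATR, had 615 and 674 counts, against 715 in WT (log2 −0.34 ± 0.17, SE, adjusted p = 0.236). CHEK2, the effector of ATM, had 381 and 403 counts, against 402 in WT (log2 −0.23 ± 0.18, SE). TOPBP1, which activates ATR, had 76.3 and 78.3 CPM, against 83.9 CPM in WT. Changes of this size were not distinguished from the spread between libraries at this depth and with 1 WT library.

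Among other genes of the same pathways, listed by function, more fell than rose. Of 67 listed, 65 rows were tested, and 13 fell, 1 rose and 51 did not pass, or 20% and 1.54% beside 3.76% and 3.96% of all genes, with a median log2 change of −0.29. Checkpoint signalling genes accounted for 7 of the 13 falls, out of 15 tested. TONSL, which acts in the repair of stalled forks, had 76 and 85 counts, against 195 in WT (log2 −1.47 ± 0.23, SE, adjusted p = 6.92e-04). PKMYT1, an inhibitory kinase of CDK1, had 117 and 134 counts, against 272 in WT (log2 −1.31 ± 0.21, SE, adjusted p = 8.17e-04), with 23.1% of its read-length sequences on the opposite strand of another gene. H2AX, the histone variant that ATM marks at breaks, had 518 and 541 counts, against 1117 in WT (log2 −1.27 ± 0.16, SE, adjusted p = 1.53e-04). For all 3 genes both knockdown libraries lay below WT. SLX1A, a nuclease gene with a near-identical copy, is uncertain, as its row ENSG00000181625 had 60 and 35 counts against 127 in WT and fell, while its row ENSG00000132207 had 272 and 227 counts against 188 in WT and did not pass. The gene that rose was ABRAXAS1, the scaffold of the BRCA1-A complex, with 206 and 183 counts against 97 in WT (log2 0.81 ± 0.23, SE, adjusted p = 0.0380), and 21.4% of its read-length sequences belong to the opposite strand of MRPS18C.

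Most markers of dividing cells fell. Of all genes tested, 3.76% fell and 3.96% rose, with a median log2 change of 0.01. Of 20 S phase and replication markers, 16 fell and 0 rose, with a median log2 change of −0.87. Their summed level was 1590.5 and 1820.5 CPM with shRNA 1 and shRNA 2, against 2994 CPM in WT. Of 15 markers of G2 and mitosis, 11 fell and 0 rose, with a median of −0.86 and a summed level of 2131 and 2660.4 CPM, against 4340.1 CPM in WT. The summed level of the 36 genes was 986 and 1117 CPM, against 1295 CPM in WT. CDKN1A, the gene of the cell cycle inhibitor p21, stood at 344% and 233% of WT. The part of the cell cycle markers in the changes of the 36 genes was not tested, and in RNA from whole cultures fewer cells in S phase and less RNA per cell cannot be told apart.

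**Figure D3:**
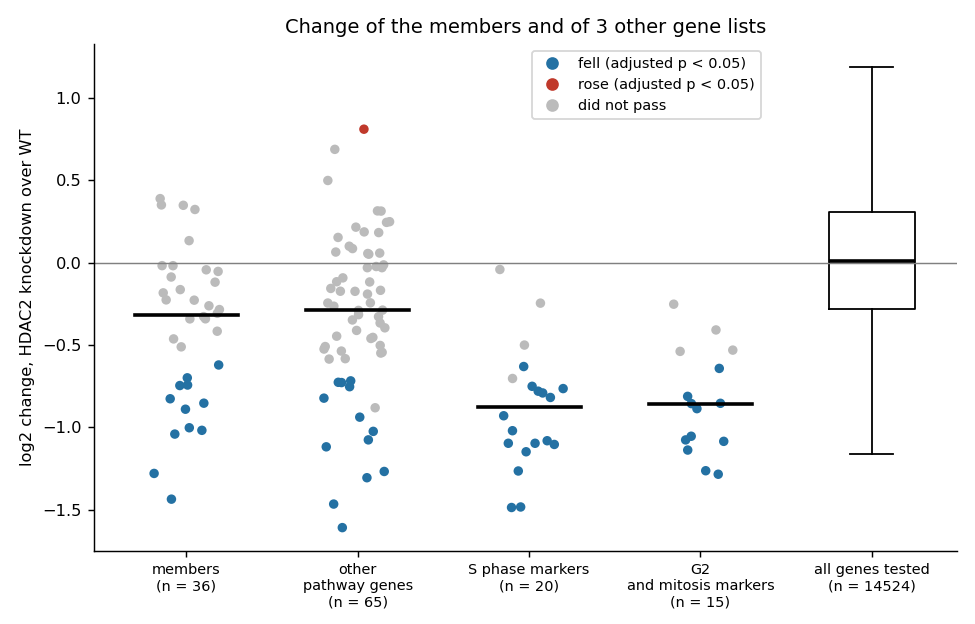
Log2 change over WT of the 36 genes (members), the other pathway genes, the S phase markers and the G2 and mitosis markers, with all genes tested as a box plot (box, quartiles; whiskers, 1.5 interquartile ranges; more distant genes are not drawn). Each point is 1 gene and thick lines are medians, which lie at −0.32, −0.29, −0.87, −0.86 and 0.01.

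The shRNA 1 library was the lower of the knockdown libraries for most of these genes. Of the 36, 29 were lower with shRNA 1 than with shRNA 2 (80.6%), beside 50.2% of all genes tested, 20 of the 20 S phase markers and 14 of the 15 G2 and mitosis markers. The median log2 change against WT was −0.50 with shRNA 1 and −0.15 with shRNA 2. RAD51D and RMI1 differed most, being higher with shRNA 2 by 0.62 and 0.59 on the log2 scale. In the other direction FANCE was lower with shRNA 2 by 0.48, and MUS81, ATR, RAD51B, FANCA, XRCC3 and PALB2 were lower with it by 0.22 or less. With 1 library a hairpin, these differences have no test. HDAC2 was also lower in the shRNA 1 library, in which CDKN1A was higher. The 36 genes of one library share its RNA and its depth, so their agreement is not that of independent measurements.

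The values of several genes depended on a trend of the log2 change with GC content, taken over all genes tested from each gene's longest transcript. The 36 genes spanned 36.0% to 63.8% GC. With that trend removed, the median of the 36 was −0.57, beside 0.0044 over all genes tested, and 13 fell, where 2.59% of all genes tested fell and 1.46% rose. FANCE lost its call (log2 −0.79, adjusted p = 0.141), while BARD1 and BRIP1 passed, at log2 changes of −0.73 and −0.79 (adjusted p = 0.0311 and 0.0368). The values of the 4 genes above WT with both hairpins shrank, to 0.11 for ATM, 0.08 for ATR, 0.02 for NBN and 0.15 for RAD50. Transcripts of low GC, such as RMI1 and RAD51AP1, then differed more from WT, by −1.21 and −1.24, and XRCC3, the gene of highest GC, differed less, by −0.98. ABRAXAS1 no longer passed (log2 0.52, adjusted p = 0.232). The origin of the trend was not tested.

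**Figure D4:**
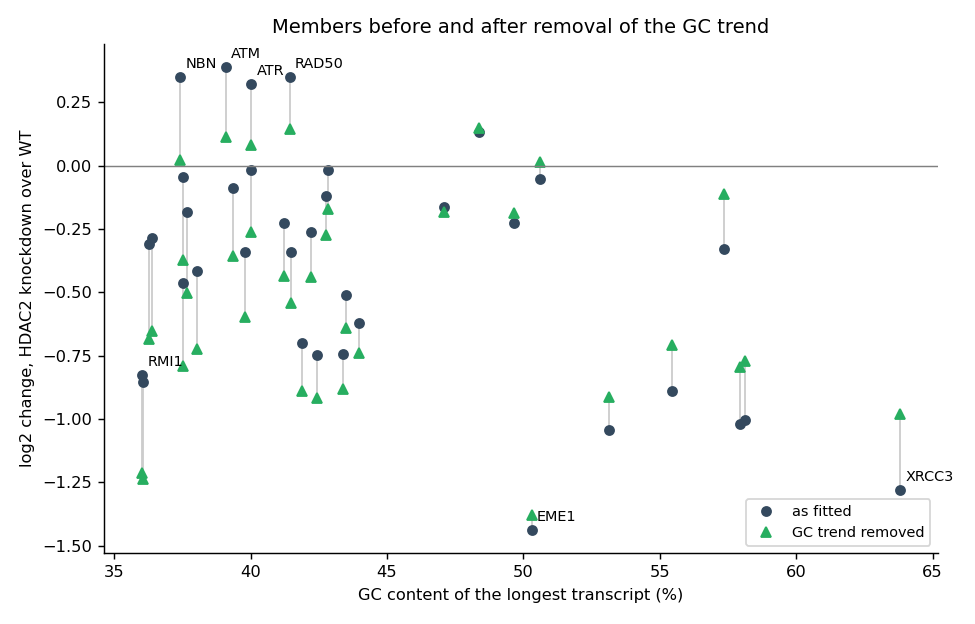
Log2 change over WT of each of the 36 genes against the GC content of its longest transcript, as fitted (circles) and with the GC trend removed (triangles). Grey lines join the values of a gene. ATM, ATR, NBN and RAD50 move to between 0.02 and 0.15, and RMI1 and XRCC3 move in opposite directions.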

How the data were processed

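Per the labels' protocols, Trizol-extracted total RNA was made into ScriptSeq Gold libraries for NextSeq reads of 75 bp. The deposited values are estimated counts for each Ensembl gene, already whole, so rounding changed none, and RSEM 1.2.3, edgeR and hg19 are named in the submitters' processing notes, with no step given. RSEM divides reads that several genes could have produced. The counts were tested with edgeR 4.0.16 (R 4.3.3, TMM scaling, filterByExpr defaults, quasi-likelihood test, Benjamini-Hochberg adjustment over 14524 genes, threshold 0.05). The fit had 1 residual and 18.9 prior degrees of freedom. In a simulation, 67 genes were changed 1.5-fold, 67 genes 2-fold and 66 genes 4-fold. The simulated spread followed the trend with expression level alone, without a spread particular to each gene. There the fit recovered 13.4% of 1.5-fold, 59.7% of 2-fold and 86.4% of 4-fold changes, and it called 6 unchanged genes. Changes of 1.5-fold were mostly missed in that setting. In the data 1121 genes passed, so these shares need not hold for them. CPM are edgeR's counts per library size with TMM factors, and changes of single hairpins are log2 CPM with a prior count of 2, without a test. GENCODE 29 (GRCh38) gave transcript GC content, known for 97.2% of the genes tested, and the share of 75-base sequences common to other genes, and RefSeq gave promoters. The deposited table gives no coordinates.

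Members and lists were chosen with earlier results of these data known. Every gene past the threshold is given in full, as are the highest and lowest of the others in each role, and up to 5 falling and 5 rising other pathway genes by size. Values beyond this rule, such as those of BARD1 and COL1A2, were chosen after they were seen, and some results under the rule are not reported here. H2AX and ABRAXAS1 stand in the table under older symbols. Alternatives were library size alone, upper quartile scaling, size factors and the Wald test of DESeq2 1.42.0, other filters, the likelihood ratio test of edgeR, removal of a GC trend (loess, span 0.5), sums with named pseudogenes and leaving out a hairpin.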

Additional observations from a re-analysis of the deposited data

How the results depend on the processing

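Without a filter, 0 genes passed edgeR's quasi-likelihood test in either direction. Thus 0 of the 37 genes, 0 other pathway genes, 0 S phase markers and 0 G2 and mitosis markers passed. In the same fit, 2486 of 23698 genes and 10 of the 37 had an unadjusted p below 0.05. That fit had 1.92 prior degrees of freedom, against 18.9. DESeq2's Wald test called 151 genes higher and 155 lower, 1 of the 36 and, of other pathway genes, 4 lower and 0 higher. Of the 12 falls, 7 did not pass that test and 4 had no adjusted p. With library size alone, 868 genes rose in all and 2 of the other pathway genes, and the changes of PALB2 and RBBP8 turned to 0.0157 and 0.0154. With the GC trend removed 212 genes rose, the median of the 36 was −0.569, the change of FANCC turned to 0.0137, and 0 other pathway genes rose, as under the stricter filter of mean count 50. The other scalings, filter and likelihood ratio test kept between 10 and 12 of the 12 falls, losing BRCA1 and, under the stricter filter, RMI1. Sums with named pseudogenes changed no call among the 4 genes that had any. The causes were not tested. With 1 hairpin left out there is no test. The median then ranged from −0.504 to −0.155, and 26 to 32 of the 36 genes lay below WT. No paired analysis was possible because the groups share fewer than 2 replicate numbers. Counts near 50 in the knockdown libraries, as for EME1 and FANCE, limit the precision.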
